A study of Mus musculus with 43 samples.

Results

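The nuclear-encoded genes of the mitochondrial respiratory chain were followed in mouse lungs with bleomycin-induced fibrosis, with and without nintedanib. Their members were the genes whose symbol begins with Nduf, Uqcr, Atp5 or Cox4 to Cox8, plus Sdha, Sdhb, Sdhc and Sdhd, without Cox4i2 and Ndufa4l2. This rule found 92 of the 21938 genes in the table. They comprised 36 subunits and 8 assembly factors of complex I, 4 subunits of complex II, 8 of complex III, 18 genes of complex IV and 18 genes of complex V. Ndufa4, whose product is now placed in complex IV, was counted there. A second row named Atp5o, which overlaps the first on chromosome 16, had 0 counts in every library, and Cox7b2 and Cox8c were too low to test, so 89 members were tested. The 13 protein-coding genes of the mitochondrial genome were not analysed here.

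RNA was sequenced from the inferior lung lobe of 43 mice in 3 groups. In 17 libraries the mice had received bleomycin, an antibiotic that damages DNA and is used to induce lung fibrosis in rodents, and nintedanib, a kinase inhibitor that blocks receptors for PDGF, FGF and VEGF. In 16 libraries the mice had received bleomycin and the vehicle of nintedanib. In 10 libraries the mice were controls given a vehicle that the labels do not name. Any effect of that vehicle therefore cannot be told apart from one of bleomycin. The labels give no strain, sex, age, dose, route or day, and no mutation or transgene is named. Each library was taken as 1 mouse, and since no label says how the mice were kept or sampled, the p-values cover only the spread among these libraries. Totals ran from 13324549 to 18723538 counts in nintedanib libraries, from 13175246 to 19111457 in bleomycin vehicle libraries and from 13138281 to 17812995 in control libraries. The lung label fits the 8 alveolar type 2 cell markers, whose summed level ran from 22770 to 52290 CPM in nintedanib mice, from 14610 to 52370 CPM in bleomycin vehicle mice and from 24570 to 32920 CPM in control mice (CPM, counts scaled to a common library size with TMM factors).

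The respiratory chain transfers electrons from NADH and succinate to oxygen in the inner mitochondrial membrane. Complex I oxidises NADH, complex II oxidises succinate, complex III passes electrons from ubiquinol to cytochrome c and complex IV reduces oxygen. The proton gradient that complexes I, III and IV build drives ATP synthesis by complex V. Several small subunits of complex IV exist as a widely expressed isoform and one made chiefly in heart, skeletal muscle or brown fat.

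The bases just before the annotated start of 4 members are shown as examples, which do not stand for the members as a whole. Cox6a1 (GRCm38.p6, chr5:115348959-115349078, minus strand) is widely expressed, and Sdhd (chr9:50603850-50603969, minus strand) encodes an anchor of complex II. Cox7a1 (chr7:30184051-30184170, plus strand) and Cox8b (chr7:140900447-140900566, minus strand) are striated muscle isoforms. Each run holds 120 bases of the gene's own strand, from RefSeq, and the capitals mark a match to the motifs named after them.
Cox6a1: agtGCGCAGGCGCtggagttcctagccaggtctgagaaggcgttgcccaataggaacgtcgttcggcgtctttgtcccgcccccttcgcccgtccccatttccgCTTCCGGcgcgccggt
Sdhd: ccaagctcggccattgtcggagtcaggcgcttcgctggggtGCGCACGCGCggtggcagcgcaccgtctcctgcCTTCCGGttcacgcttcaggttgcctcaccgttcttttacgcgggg
Cox7a1: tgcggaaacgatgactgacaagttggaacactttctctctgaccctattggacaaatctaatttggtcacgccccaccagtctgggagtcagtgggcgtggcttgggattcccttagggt
Cox8b: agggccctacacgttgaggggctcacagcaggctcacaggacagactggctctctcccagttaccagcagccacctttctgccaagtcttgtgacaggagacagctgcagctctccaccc

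Cox6a1 and Sdhd each held a match to the NRF1 motif, spelled GCGCA, any base, then GCGC, and a CCGGAAG match on the other strand, the core of sites for ETS factors such as GABPA. Neither motif matched in the 120 bases shown of Cox7a1 or Cox8b. The same stretch of Cox5a, a widely expressed subunit that is not shown, held neither motif as well. RefSeq gave 81 start windows for 76 member symbols of 91. In the 250 bases before the start, read on both strands, the NRF1 letters were found in 18.5% of the member windows, against 7.0% of the 14716 windows of tested genes and 3.7% of all 32851 windows. CCGGAAG was found in 17.3% of member windows, against 11.9% and 6.9%. Each of these 2 motifs was found for 14 of the 76 member symbols with a window. The YY1 letters AAGATGGC stood in 1.2% of member windows, the ERR letters AAGGTCA in 6.2% and the CREB letters TGACGTCA in 4.9%, against 1.7%, 3.0% and 2.4% of tested genes' windows and 1.6%, 4.1% and 1.5% of all windows. A match is a description of the letters only. The 14 tested members with the NRF1 letters and the 61 without it had median log2 changes of 0.02 and 0.01 between bleomycin vehicle and control mice.

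One control library stood apart in these genes, and the results that rest on it are given with and without it. In control replicate 1, 77 of the 89 tested members had their highest level of the 10 controls, against 13.3% of all tested genes, and the median member was 1.58 times the median of the other 9 controls. The summed level of all members was 10057 CPM in control replicate 1 and ran from 5545 to 6433 CPM in the other 9 controls. The ratio was highest in the subunits of complex II, with a median of 2.14, and complex III, with a median of 1.98. It was 1.59 for complex I, 1.36 for complex V and 1.22 for the complex I assembly factors. Sdha, the flavoprotein subunit that oxidises succinate, had 680 CPM in this library and 297 to 342 CPM in the other 9, and Uqcrfs1, the Rieske iron-sulfur subunit of complex III, had 125 CPM in it and 47.0 to 60.8 CPM in the others. The same library held 494 CPM of Ucp1, the uncoupling protein of brown fat, against at most 1.24 CPM in the other 42 libraries. Its 4 brown adipocyte markers summed to 744 CPM, against 1.12 to 5.74 CPM in the other 9 controls, with Elovl3 at 0 in all 9. Its 6 white adipocyte markers summed to 795 CPM, against 8.68 to 224 CPM.

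**Figure D1:**
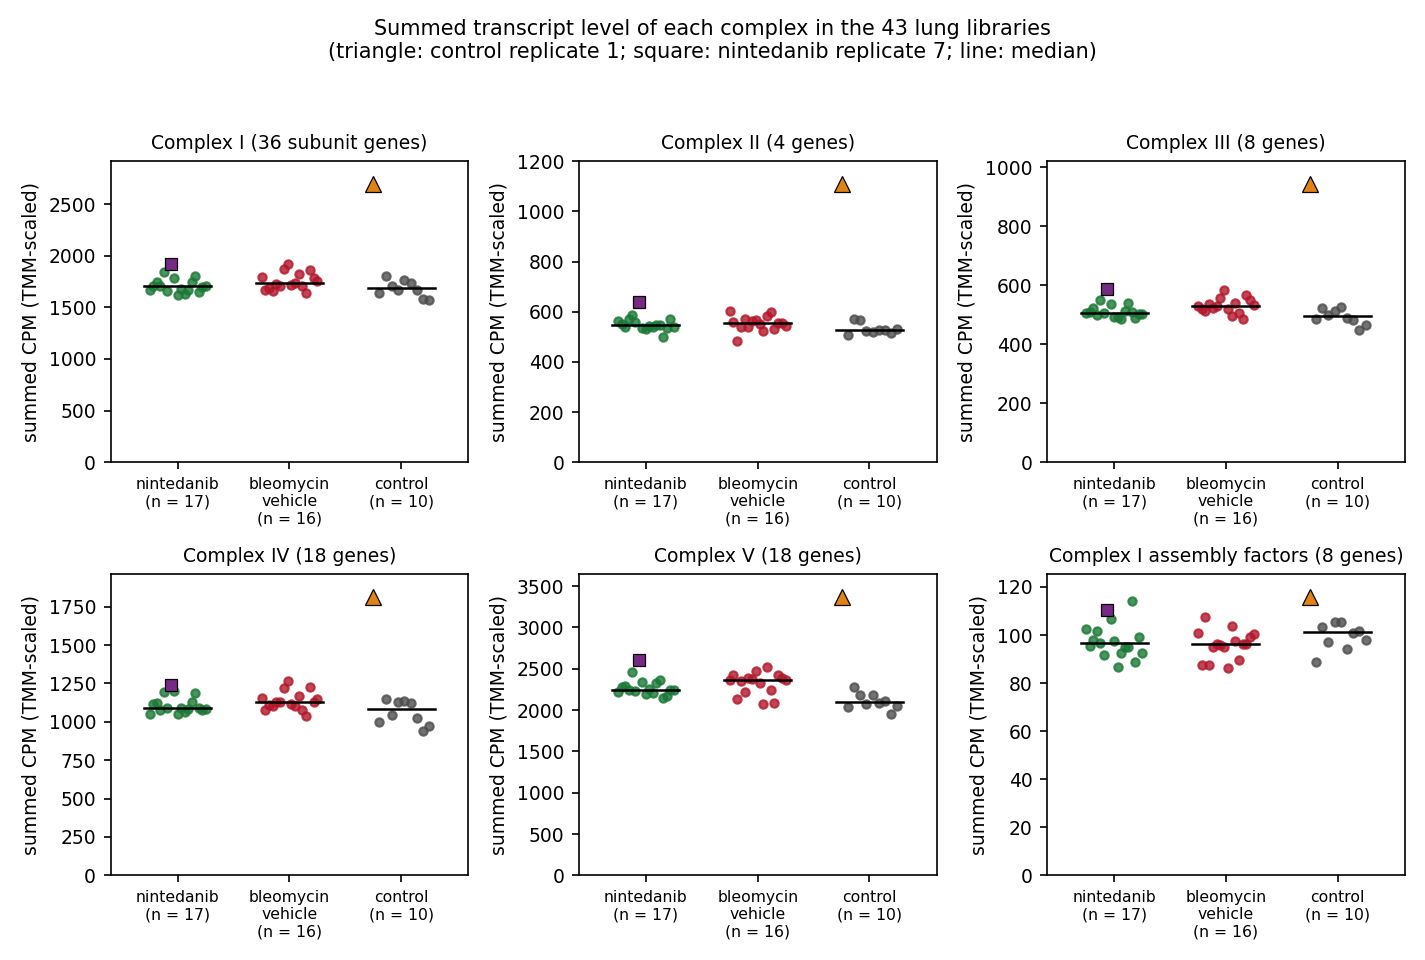
Summed TMM-scaled CPM of the genes of each complex in every library, by group, with the group median as a line. Control replicate 1, the triangle, lies above the other control libraries in the panels of complexes I to V, at 1111 CPM for complex II against 506 to 572 CPM in the other 9 controls, while the 3 groups otherwise overlap.

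Apart from that library, the summed levels of the chain lay close together in the 3 groups. All members together had a median of 6198 CPM in nintedanib mice, 6359 CPM in bleomycin vehicle mice and 6031 CPM in control mice, which is 0.620%, 0.636% and 0.603% of the scaled counts. Without control replicate 1, complex V had the clearest shift: its genes summed to a median of 2248 CPM in nintedanib mice, 2361 CPM in bleomycin vehicle mice and 2081 CPM in the 9 controls. The ranges of the 3 groups overlapped for each complex. Per kilobase of exon, the highest member in every group was Cox6a1, a small subunit of complex IV, at a median of 246 CPM per kilobase in nintedanib mice, 251 in bleomycin vehicle mice and 238 in control mice. Atp5a1, the alpha subunit of the catalytic F1 part of complex V, followed with medians of 185, 190 and 181 CPM per kilobase in nintedanib, bleomycin vehicle and control mice. Its neighbour in that order was Cox8a, with 174, 181 and 163 CPM per kilobase in the same 3 groups.

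The first comparison asked how the chain's transcripts differed in bleomycin vehicle mice from control mice. Of the 89 members tested, 23 passed an adjusted p of 0.05 (25.8%), while 57.9% of all 14836 tested genes did. Of these members, 13 were higher and 10 lower in bleomycin vehicle mice, against 29.5% and 28.3% of all tested genes, by edgeR's quasi-likelihood F test with Benjamini-Hochberg adjustment over all tested genes. Without control replicate 1, 42 members passed (34 higher, 8 lower), against 57.7% of all genes, 29.9% higher and 27.8% lower. All 13 members higher with every library were higher again in that fit, and 8 of the 10 lower ones were lower again. The median member log2 change was 0.01 with every library and 0.09 without that one, while the median over all tested genes was -0.01 and 0.00. The changes were small: outside the 3 striated muscle isoforms the log2 change ran from -0.34 to 0.41, and 7 of 89 members moved by more than 1.25-fold, or 7.87% against 38.2% of all tested genes. Scaling by library totals in place of TMM factors turned the split to 9 higher and 13 lower. This scaling also lowered the median log2 change over all tested genes, to -0.05, with the members' median at -0.03. In whole-lung RNA, fewer cells of a type and less RNA per cell cannot be told apart.

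**Figure D2:**
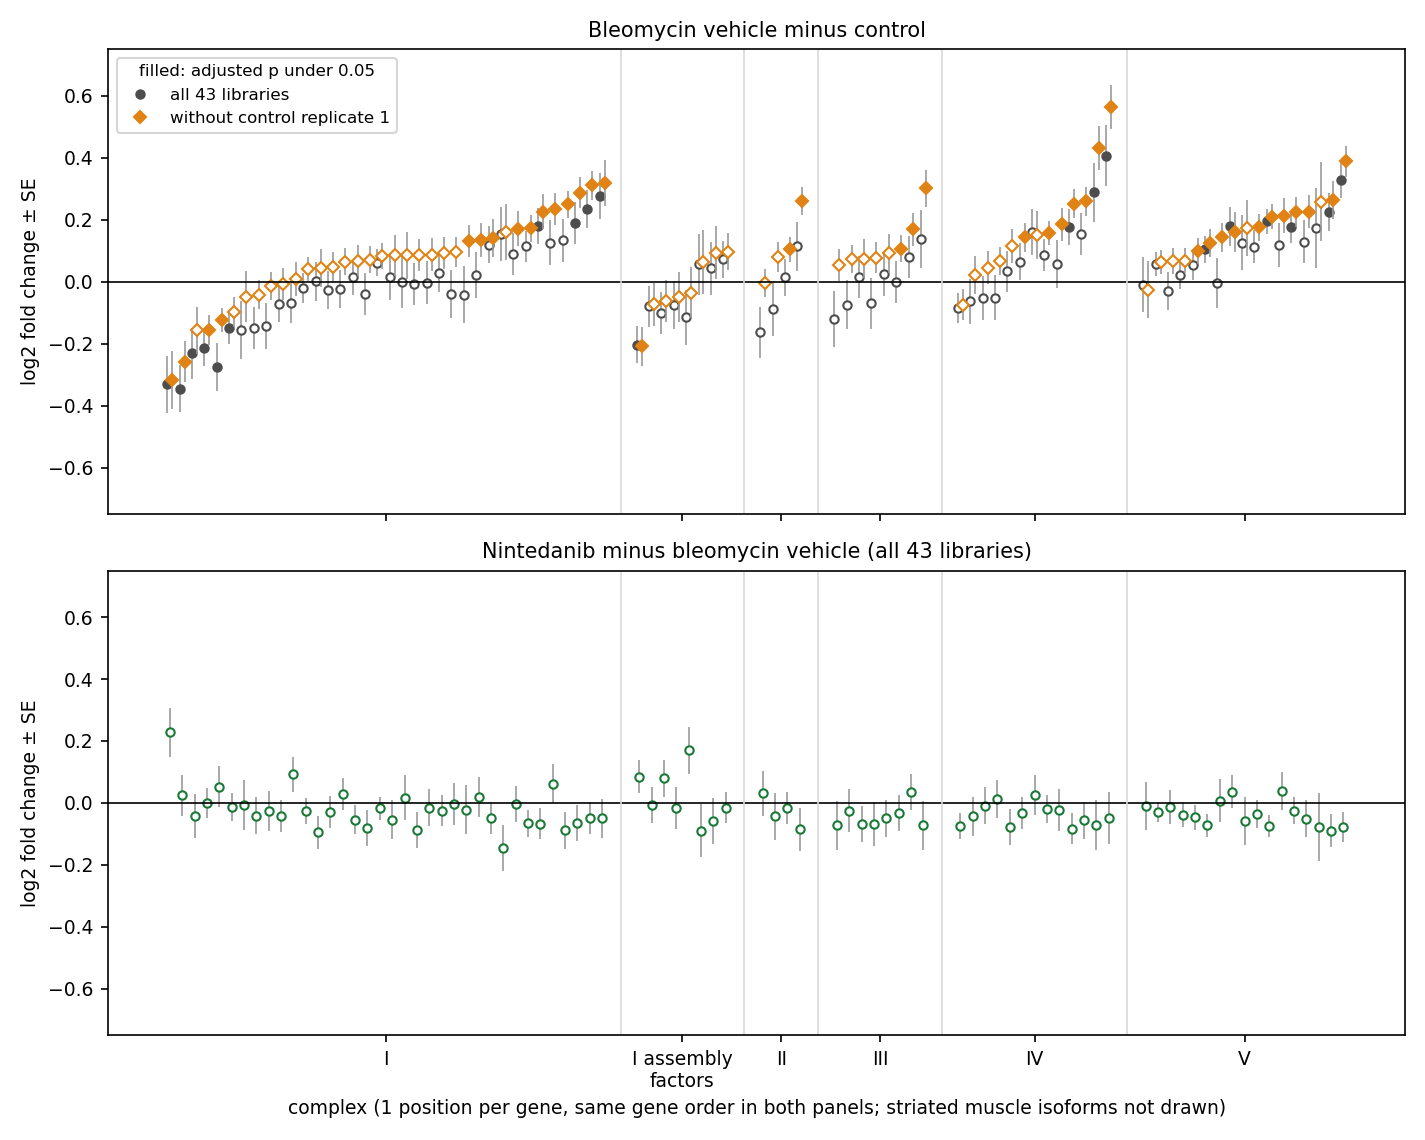
Log2 fold change with its standard error for each tested member outside the striated muscle isoforms, by complex: bleomycin vehicle minus control above (circles, all libraries; diamonds, without control replicate 1) and nintedanib minus bleomycin vehicle below. In the upper panel the diamonds lie mostly above the circles, with 34 members called higher in that fit and 13 with every library, and in the lower panel no drawn member is called.

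In complex V, 6 of 17 tested genes were higher and none lower in bleomycin vehicle mice, at a median log2 change of 0.12. That is 35.3% of them, close to the 29.5% of all tested genes called higher. The counts were 11 higher and none lower, at a median of 0.17, without control replicate 1, or 64.7% against 29.9% of all tested genes called higher. Atp5f1, the b subunit of the stalk that holds the enzyme still, had a lowest, median and highest level of 157, 195 and 210.3 CPM in bleomycin vehicle mice and 130.04, 142 and 203 CPM in control mice. All 16 bleomycin vehicle mice lay above the control median, and the groups overlapped through control replicate 1, since the other 9 controls reached 156 CPM. The log2 change was 0.33 ± 0.06 (SE, n = 16 and 10; edgeR adjusted p = 4.85e-06). Atp5mpl, a small membrane subunit, rose by 0.22 ± 0.06 (SE; edgeR adjusted p = 0.00209), with 24.8 to 31.9 CPM in bleomycin vehicle mice and 21.5 to 31.1 CPM in control mice. The 3 genes for the c ring, the proton-driven rotor, passed with every library: Atp5g1 rose by 0.18, Atp5g2 by 0.19 and Atp5g3 by 0.10 on the log2 scale (edgeR adjusted p of 0.0145, 8.32e-05 and 0.0390). Atp5g3 lost its call under most other scalings, filters and tools, DESeq2 and library totals among them. Atp5g1 lost it under library totals, with the cardiac covariate and within the largest series of library numbers alone. It also lost it without control replicate 1 when the TMM factors were recomputed. Without the libraries in which the adipocyte hormone Adipoq reached 1 CPM, Atp5g1, Atp5g2 and Atp5mpl lost their calls. Atp5b, the catalytic beta subunit, had medians of 605 CPM in bleomycin vehicle mice and 534 CPM in control mice. Its log2 change was 0.00 ± 0.08 with every library, and 0.14 ± 0.05 (edgeR adjusted p = 0.00813) without control replicate 1, where it stood at 1113 CPM. Some reads of Atp5f1 may belong to other genes, since 27.9% of its 75-base windows occur in other genes' transcripts, and for Atp5l the share was 76.0%.

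Complex IV held the largest rise, Cox5a, and the 3 largest falls. Of its 16 tested genes, 3 were higher and 3 lower in bleomycin vehicle mice, beside 29.5% and 28.3% of all tested genes. The 3 lower ones were the striated muscle isoforms. Cox5a, a subunit on the matrix side, had a lowest, median and highest level of 19.6, 26.2 and 31.8 CPM in bleomycin vehicle mice and 15.3, 18.2 and 38.4 CPM in control mice. Every bleomycin vehicle mouse lay above the control median, and the 38.4 CPM belonged to control replicate 1, with the other 9 controls at 15.3 to 19.7 CPM. The log2 change was 0.41 ± 0.10 (SE; edgeR adjusted p = 0.000527), and 0.56 ± 0.07 without that library. Of the 75-base windows of Cox5a, 21.7% are shared with other genes. Cox7b, a small subunit encoded on the X chromosome, ran from 38.2 to 63.2 CPM in bleomycin vehicle mice and from 34.6 to 81.8 CPM in control mice, of which 81.8 CPM was control replicate 1. It rose by 0.29 ± 0.10 on the log2 scale (SE; edgeR adjusted p = 0.00899), or by 0.43 without that library, and Cox7a2, the widely expressed isoform of subunit 7a, rose by 0.18 ± 0.06 (edgeR adjusted p = 0.00899). All 3 rises lost their call with the cardiac covariate, where Cox5a changed by 0.27, Cox7b by 0.14 and Cox7a2 by 0.13 (edgeR adjusted p of 0.0928, 0.381 and 0.199).

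The other widely expressed isoforms did not pass the test with every library. Cox4i1, the widely expressed isoform of subunit 4, changed by -0.06 ± 0.07, Cox6a1 by -0.05 ± 0.07, Cox8a by 0.09 ± 0.05 and Cox6b1 by 0.15 ± 0.07 on the log2 scale (SE; edgeR adjusted p of 0.463, 0.551, 0.146 and 0.0503). Cox6b1 changed by 0.26 ± 0.05 and Cox8a by 0.16 ± 0.04 when control replicate 1 was left out, and both passed (edgeR adjusted p of 1.49e-05 and 0.000526). Cox6b2, an isoform best known from testis, was present at 12.97 to 22.8 CPM in bleomycin vehicle mice and 12.3 to 18.3 CPM in control mice, with a log2 change of 0.16 ± 0.07 (edgeR adjusted p = 0.0607). Cox7b2 and Cox8c, the other isoforms of testis, had a median of 0 CPM in each group.

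The striated muscle isoforms fell in bleomycin vehicle mice. Cox8b, the isoform of subunit 8 made in heart, skeletal muscle and brown fat, had a lowest, median and highest level of 0.0595, 0.478 and 3.02 CPM in bleomycin vehicle mice and 1.33, 4.86 and 84.6 CPM in control mice. Every bleomycin vehicle mouse lay below the control median, and control replicate 1 was the 84.6 CPM, 17.5 times the median of the other 9. The log2 change was -3.94 ± 0.59 with every library (SE; edgeR adjusted p = 3.68e-07) and -2.36 ± 0.47 without that one (edgeR adjusted p = 4.77e-05). DESeq2 gave -2.27 with every library, run with its default settings, which can replace an outlying count. Whether it replaced that of control replicate 1 was not checked. Cox7a1, the corresponding isoform of subunit 7a, had 1.40, 2.16 and 3.86 CPM in bleomycin vehicle mice and 2.80, 4.15 and 42.7 CPM in control mice as lowest, median and highest. It changed by -1.87 ± 0.32 (SE; edgeR adjusted p = 4.21e-06), and by -1.01 ± 0.22 without control replicate 1. Cox6a2, the heart and skeletal muscle isoform of subunit 6a, had 2.04, 3.67 and 11.5 CPM in bleomycin vehicle mice and 7.29, 11.01 and 21.3 CPM in control mice. In control replicate 1 it stood at 9.37 CPM, within the range of the other 9, and its log2 change was -1.22 ± 0.28 with every library and -1.26 ± 0.29 without that one (SE; edgeR adjusted p of 0.000318 and 0.000345).

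Transcripts of heart muscle and fat moved with these isoforms. The 12 cardiac myocyte markers summed to 27.7 to 633 CPM in bleomycin vehicle mice and 345 to 1878 CPM in control mice, and all 11 tested ones fell. The 6 white adipocyte markers summed to 1.76 to 13.5 CPM and 8.68 to 795 CPM in the same 2 groups, and all 5 tested ones fell. The 8 skeletal muscle markers summed to 5.06 to 26.7 CPM in bleomycin vehicle mice and 7.85 to 22.4 CPM in control mice, and 1 of 5 tested fell. With the cardiac markers as a covariate, Cox6a2 changed by -0.38 (edgeR adjusted p = 0.373). With fat and airway markers as covariates, Cox7a1 changed by -0.31 (edgeR adjusted p = 0.5002) and Cox8b by -1.07 (edgeR adjusted p = 0.159). With the cardiac covariate, Cox7a1 at -1.24 (edgeR adjusted p = 0.0124) and Cox8b at -2.62 (edgeR adjusted p = 0.00116) held their calls. With the fat and airway covariates, all 13 members that had been higher were higher again, while Ndufb2 alone of the 10 lower ones was lower again. With the cardiac covariate, 6 of the 13 and 3 of the 10 held their call. Without the 13 libraries of the series in which the adipocyte hormone Adipoq reached 1 CPM, which left 2 controls, 8 of the 13 and 1 of the 10 did. The call that held among the lower ones was Cox8b, at -1.94 (edgeR adjusted p = 0.0243). With so few controls the sizes of some lost calls were close to those with every library or larger, as for Cox6a2 at -1.05 and Ndufb2 at -0.45 (edgeR adjusted p of 0.117 and 0.0558). The tested cardiac and white adipocyte markers, and 7 of the 8 ciliated cell markers used for the airway, were themselves lower in bleomycin vehicle mice. Fits with them as covariates therefore cannot separate their part from that of bleomycin, for calls kept or lost. The part of heart and fat transcripts in these changes was not tested apart.

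**Figure D3:**
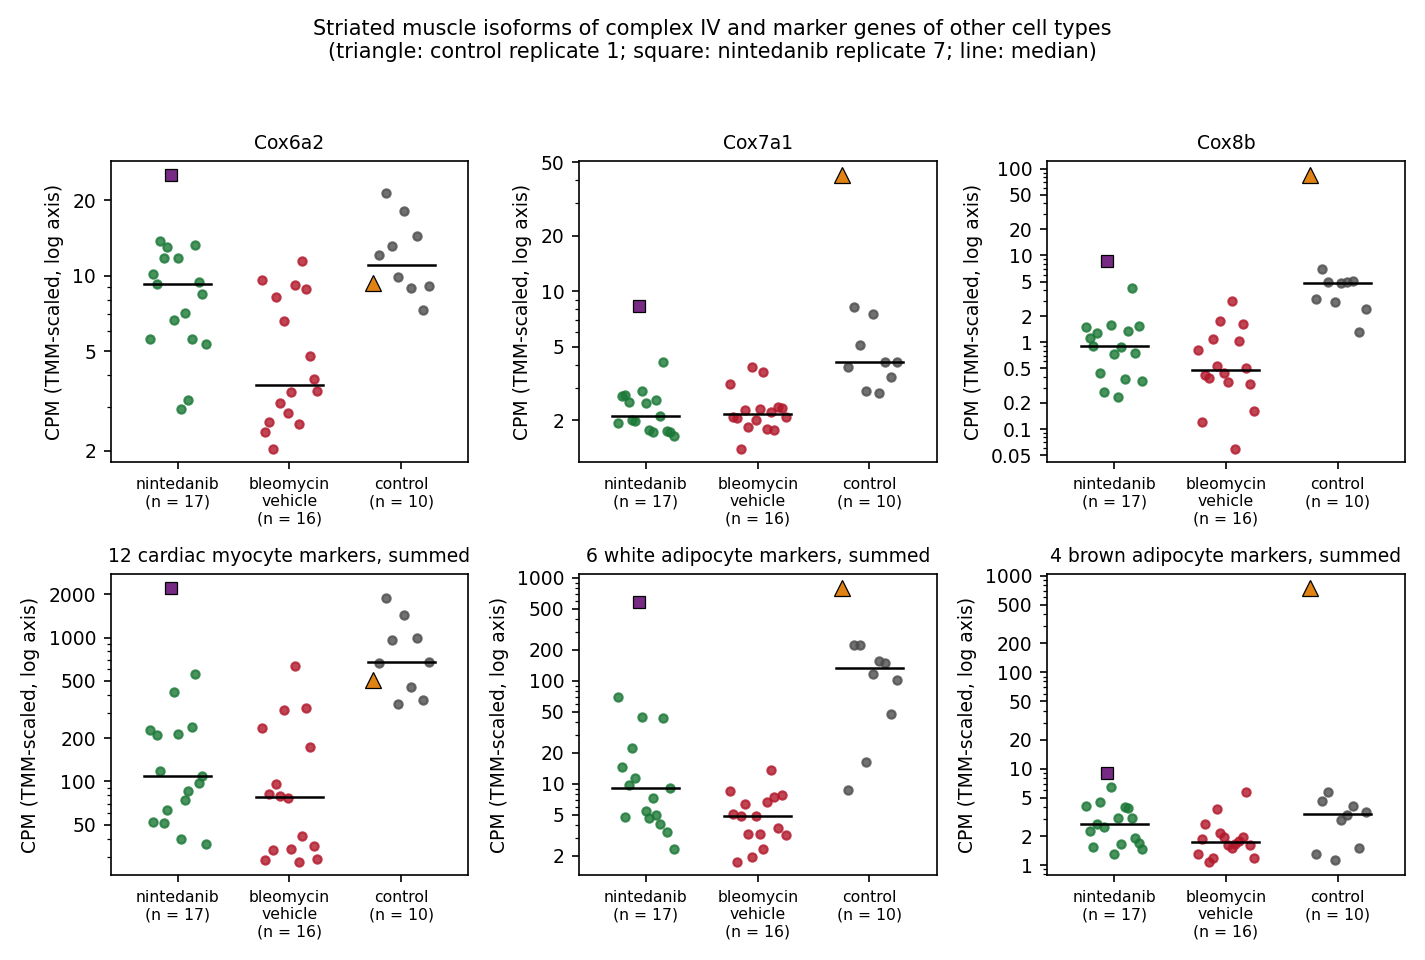
Level of the 3 striated muscle isoforms and summed level of heart, white fat and brown fat markers in each library on log axes, with the group median as a line. Cox7a1 and Cox8b peak in control replicate 1 (triangle), the library with 744 CPM of brown fat markers, and nintedanib replicate 7 (square) has the highest cardiac sum, 2206 CPM, and the highest Cox6a2 level, 25.2 CPM.

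Complex I moved in both directions. Of 36 subunits, 4 were higher and 6 lower in bleomycin vehicle mice, at a median log2 change of -0.01, beside 29.5% and 28.3% of all tested genes. Without control replicate 1 the counts were 11 higher and 4 lower at a median of 0.08, beside 29.9% and 27.8% of all tested genes. The largest rises were in small accessory subunits. Ndufc2 had a lowest, median and highest level of 63.7, 88.1 and 104 CPM in bleomycin vehicle mice and 41.5, 72.0 and 89.6 CPM in control mice, and 15 of 16 bleomycin vehicle mice lay above the control median. It rose by 0.28 ± 0.07 on the log2 scale (SE; edgeR adjusted p = 0.00145). Ndufa3 rose by 0.23 ± 0.06 (edgeR adjusted p = 0.000947), with medians of 49.5 CPM in bleomycin vehicle mice and 39.7 CPM in control mice.

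The core of complex I, whose nuclear-encoded subunits carry the flavin and the iron-sulfur clusters, is given apart. Of 7 core subunits, 2 were lower and none higher, or 28.6% lower against 28.3% of all tested genes, at a median log2 change of -0.14, and this median was -0.01 without control replicate 1, with 1 higher and 2 lower. Ndufs7, which carries the cluster closest to ubiquinone, had a lowest, median and highest level of 47.9, 59.6 and 72.4 CPM in bleomycin vehicle mice and 66.8, 73.3 and 118 CPM in control mice. All 16 bleomycin vehicle mice lay below the control median. Its log2 change was -0.34 ± 0.08 (SE; edgeR adjusted p = 0.000183), and -0.26 ± 0.07 without control replicate 1, where it stood at 118 CPM. Ndufv1, which binds NADH and the flavin, changed by -0.28 ± 0.08 with every library and by -0.12 ± 0.04 without that one (edgeR adjusted p of 0.00243 and 0.00553). Ndufb2, an accessory subunit at 3.59 to 6.85 CPM in bleomycin vehicle mice and 4.63 to 6.71 CPM in control mice, fell by 0.33 on the log2 scale with an SE of 0.09 (edgeR adjusted p = 0.00189). Of the 8 assembly factors, Ndufaf3 alone passed, at -0.20 ± 0.06 (edgeR adjusted p = 0.00380).

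Complexes II and III gave no call with every library and TMM factors, at 0 of 4 and 0 of 8 genes by edgeR, with none at an unadjusted p under 0.05 and none called by DESeq2 or limma-voom. Other edgeR fits of every library did call some: scaling by library totals called Sdha, at -0.21 (adjusted p = 0.0211), and the fat and airway covariates called Sdhc at 0.18, Sdhd at 0.32 and Uqcrq at 0.31 (adjusted p of 0.0434, 0.00265 and 0.0211). Their subunits were also the ones highest in control replicate 1. When it was left out, 2 of 4 complex II genes and 3 of 8 complex III genes were higher and none lower. Of all tested genes, 29.9% were higher and 27.8% lower in that fit. Sdhd, a membrane anchor of complex II, had a lowest, median and highest level of 64.3, 75.9 and 84.1 CPM in bleomycin vehicle mice and 58.7, 62.2 and 130.2 CPM in control mice, with the other 9 controls reaching 68.2 CPM. Its log2 change was 0.11 ± 0.08 with every library (edgeR adjusted p = 0.226) and 0.26 ± 0.05 without control replicate 1 (edgeR adjusted p = 6.62e-06). Sdhc, the other anchor, changed by 0.01 ± 0.06 and 0.10 ± 0.04 in the same 2 fits (edgeR adjusted p of 0.854 and 0.0266). Of the catalytic subunits, Sdha changed by -0.16 ± 0.08 and -0.01 ± 0.04, and Sdhb by -0.09 ± 0.09 and 0.08 ± 0.05, none past the threshold in these 2 fits. In complex III, Uqcrq, a small accessory subunit, had 47.1 to 64.8 CPM in bleomycin vehicle mice and 37.4 to 98.9 CPM in control mice. It changed by 0.14 ± 0.09 (edgeR adjusted p = 0.202) and by 0.30 ± 0.06 without control replicate 1 (edgeR adjusted p = 3.84e-05), which had the 98.9 CPM.

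The second comparison asked whether nintedanib changed these transcripts in bleomycin mice. Of 89 members, 1 passed (1.12%), against 7.31% of all tested genes. It was higher in nintedanib mice, as were 3.21% of all tested genes, and 4 members had an unadjusted p under 0.05. DESeq2 called 2 members and limma-voom called 1. The fit without control replicate 1 again called 1 member, against 7.37% of all tested genes, or 3.3% higher. The median member log2 change was -0.03, and outside the muscle isoforms the changes ran from -0.15 to 0.23 with a median SE of 0.06. Of the 89 changes, 68 were below 0 and 21 above. The split over all tested genes is not given here, and their median log2 change was -0.002. Changes below 0 were also the larger part in cytosolic ribosome genes (81 of 84) and mitochondrial ribosome genes (55 of 77). In fatty acid oxidation genes they were 5 of 15. Without the Adipoq libraries 4 members passed, all lower in nintedanib mice, against 3.83% of all tested genes. The median size of a change was 0.05 for the members and 0.09 for all tested genes.

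The called member was Cox6a2, whose lowest, median and highest levels were 2.93, 9.23 and 25.2 CPM in nintedanib mice and 2.04, 3.67 and 11.5 CPM in bleomycin vehicle mice. The groups overlapped, and 15 of 17 nintedanib mice lay above the bleomycin vehicle median. The log2 change was 0.85 ± 0.25 (SE, n = 17 and 16; edgeR adjusted p = 0.0324). The 25.2 CPM belonged to nintedanib replicate 7, whose cardiac markers summed to 2206 CPM, and without that library the change was 0.69 (edgeR adjusted p = 0.0734). When each of the 43 libraries was left out in turn, Cox6a2 passed in 37 fits, with an edgeR adjusted p from 0.0138 to 0.0734. It lost the call without nintedanib replicate 7 and without bleomycin vehicle replicate 4, 6, 8, 9 or 11, each alone. With fat and airway covariates it changed by 0.58 (edgeR adjusted p = 0.105), and with the cardiac covariate by 0.67 (edgeR adjusted p = 0.0438). Cardiac sums ran from 36.8 to 2206 CPM in nintedanib mice and from 27.7 to 633 CPM in bleomycin vehicle mice. All 11 tested cardiac markers had log2 changes above 0 in this comparison, from 0.48 to 1.34 with a median of 0.98. None of them passed by edgeR, with 5 at an unadjusted p under 0.05. Without the Adipoq libraries, 2 of the 11 were above 0 and 9 below. White adipocyte sums ran from 2.36 to 579 CPM and from 1.76 to 13.5 CPM in the same 2 groups, with 4 of 5 tested markers higher.

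The other muscle isoforms did not pass: Cox8b changed by 0.98 ± 0.56 and Cox7a1 by 0.19 ± 0.29 on the log2 scale (SE; edgeR adjusted p of 0.272 and 0.732). In the other complexes the member with the smallest p was Ndufb2 in complex I, at 0.23 ± 0.08 (edgeR adjusted p = 0.0674, DESeq2 adjusted p = 0.0476), with 4.42 to 7.23 CPM in nintedanib mice and 3.59 to 6.85 CPM in bleomycin vehicle mice. Atp5g2 in complex V changed by -0.07 ± 0.04 (edgeR adjusted p = 0.185), Uqcrh in complex III by -0.07 ± 0.06 (edgeR adjusted p = 0.483) and Sdhd in complex II by -0.08 ± 0.07 (edgeR adjusted p = 0.466). Ndufaf4, an assembly factor of complex I, changed by 0.17 ± 0.08 (edgeR adjusted p = 0.161). Cox5a and Atp5f1, the largest rises of bleomycin vehicle mice, changed by -0.05 ± 0.08 and -0.08 ± 0.05 under nintedanib, neither past the threshold. Sdha, Sdhb and Sdhc changed by 0.03, -0.04 and -0.02, and Cox4i1, Cox6a1, Cox6b1, Cox6b2, Cox7a2, Cox7b and Cox8a by -0.04, 0.01, -0.06, 0.03, -0.08, -0.07 and -0.02, none past the threshold.

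**Figure D4:**
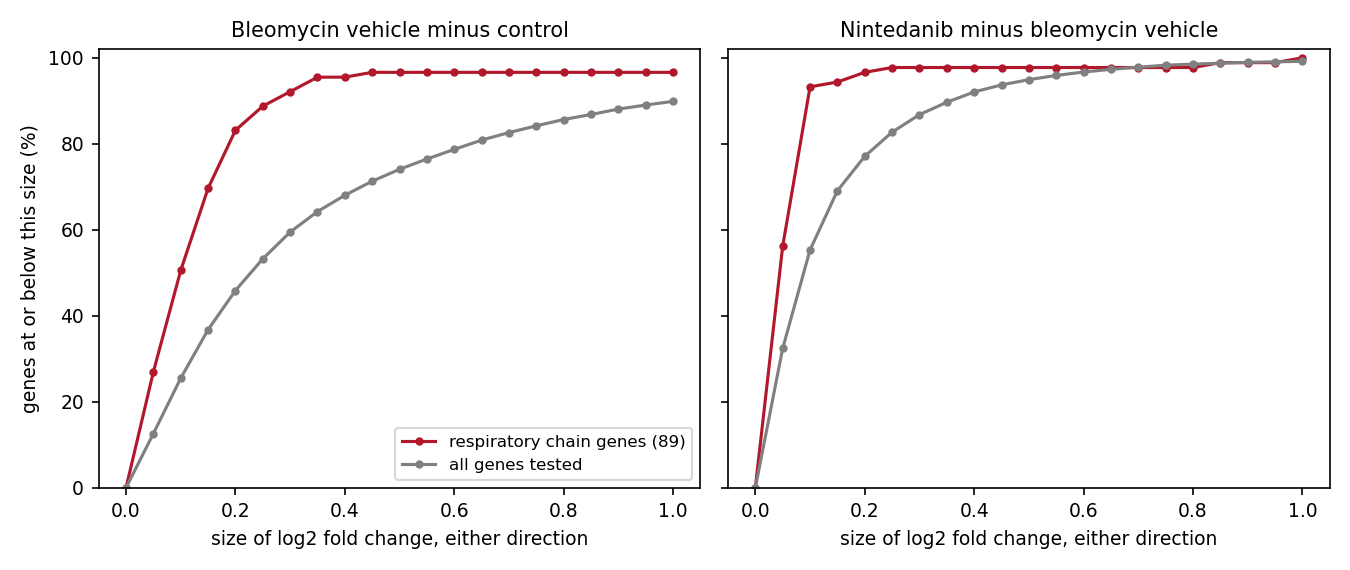
Cumulative share of genes by the size of their log2 fold change in either direction, for the 89 members and all 14836 tested genes. The members' curve lies left of that of all genes over most of the range in both comparisons, with median sizes of 0.09 against 0.23 for bleomycin vehicle minus control and 0.05 against 0.09 for nintedanib minus bleomycin vehicle.

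The third comparison set nintedanib mice against control mice, with the same control libraries as the first comparison and the same nintedanib libraries as the second. Of 89 members, 19 passed (21.3%), against 53.2% of all tested genes, with 10 higher and 9 lower in nintedanib mice, against 28.1% and 25.1% of all tested genes. The count was 36 (29 higher, 7 lower) without control replicate 1, against 52.9% of all genes, 28.4% higher and 24.5% lower. Library totals in place of TMM factors gave 3 higher and 18 lower. The median log2 change was then -0.08 for the members and -0.07 for all tested genes, against -0.02 and -0.01 with TMM factors. With every library and TMM factors, 4 of 17 tested complex V genes were higher and none lower, beside 28.1% and 25.1% of all tested genes. Cox5a had a lowest, median and highest level of 20.2, 26.4 and 29.7 CPM in nintedanib mice, against 15.3, 18.2 and 38.4 CPM in control mice. Every nintedanib mouse lay above the 19.7 CPM that the 9 controls other than replicate 1 reached. The log2 change was 0.36 ± 0.10 (SE, n = 17 and 10; edgeR adjusted p = 0.00195). With the cardiac covariate Cox5a changed by 0.26 and lost its call (edgeR adjusted p = 0.0737).

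Atp5f1 rose by 0.25 ± 0.06, Atp5g1 by 0.22 ± 0.06, Ndufc2 by 0.23 ± 0.07 and Ndufb6, an accessory subunit, by 0.19 ± 0.07 on the log2 scale in nintedanib mice (edgeR adjusted p of 0.000237, 0.00361, 0.00821 and 0.0250), and Ndufb6 by 0.30 without control replicate 1. Cox7b rose by 0.22 ± 0.09 and Cox6b2 by 0.19 ± 0.07, both close to the threshold (edgeR adjusted p of 0.0489 and 0.0297). Leaving out control replicate 1 gave 0.36 for Cox7b, and leaving out the Adipoq libraries gave -0.046 for Cox6b2, no longer past the threshold. Ndufs7 had 53.6 to 80.6 CPM in nintedanib mice and 66.8 to 118 CPM in control mice, and changed by -0.32 ± 0.08 (edgeR adjusted p = 0.000446). Ndufa5, an accessory subunit of complex I, changed by -0.27 ± 0.08 (edgeR adjusted p = 0.00420). Among the muscle isoforms, Cox8b changed by -2.96 ± 0.55 and Cox7a1 by -1.67 ± 0.31 (edgeR adjusted p of 1.74e-05 and 2.04e-05), and by -1.38 and -0.82 without control replicate 1, both again past the threshold. Both also held their call with the cardiac covariate. With the fat and airway covariates Cox8b changed by -1.19 and Cox7a1 by -0.50 (edgeR adjusted p of 0.0596 and 0.171). In that fit 8 of the 10 higher members and 0 of the 9 lower ones held their call. DESeq2 gave -1.29 for Cox8b with every library. Cox6a2 changed by -0.37 ± 0.28 (edgeR adjusted p = 0.265). In complex II no gene passed by edgeR with every library and none had an unadjusted p under 0.05, and in complex III the smallest p belonged to Uqcrfs1, at -0.19 ± 0.09 (edgeR adjusted p = 0.0682).

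Genes around the chain were counted from lists chosen with earlier results of these data known, for bleomycin vehicle against control mice, and their counts stand beside the 29.5% of all tested genes that were higher and the 28.3% that were lower. Of 19 glycolysis genes, 12 were higher and 2 lower, at a median log2 change of 0.34, led by Hk3, a hexokinase, at 1.28 and Aldoc, an aldolase, at 1.27. Of 20 regulators of mitochondrial gene expression, 2 were higher and 12 lower, at a median of -0.20, with the nuclear receptors Ppara at -1.54 and Esrrg at -0.94. The counts were 3 higher and 11 lower without control replicate 1, with Ppara at -0.78, beside 29.9% and 27.8% of all tested genes. Without the Adipoq libraries, which left 2 controls, 0 were higher and 3 lower at a median of -0.11. Of all tested genes, 13.4% were higher and 11.4% lower in that fit. Of 15 tested fatty acid oxidation genes, 1 was higher and 8 lower at a median of -0.26. Without control replicate 1, 5 were higher and 3 lower at a median of -0.01. Without the Adipoq libraries 4 were higher and 0 lower at a median of 0.07, beside the 13.4% and 11.4% of all tested genes. Of 19 genes of the tricarboxylic acid cycle and pyruvate entry, 1 was higher and 4 lower, and 6 higher and 1 lower without control replicate 1. Pcx, pyruvate carboxylase, rose by 0.57. Of 18 genes of electron carriers and ubiquinone synthesis, 1 was higher and 5 lower, with Coq8a at -1.49, or -0.65 without control replicate 1, and Coq7 at 0.52.

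Transcripts for building the chain were counted against the same shares of all genes. Among assembly factors outside the members, 2 of 7 for complex I were higher and 1 lower, 2 of 10 for complexes II and III were higher and 1 lower, and 1 of 17 tested for complex IV was higher and 3 lower. Of 4 genes for complex V assembly and control, Atpif1, the inhibitor of ATP hydrolysis by complex V, rose by 0.43 (edgeR adjusted p = 6.03e-07). Without the Adipoq libraries, which left 2 controls, 0 of these 4 passed, and the highest log2 change among them was 0.19. Of all tested genes, 13.4% were higher and 11.4% lower in that fit. Of 77 tested mitochondrial ribosome genes, 17 were higher and 12 lower at a median of 0.05, of 22 tested genes for protein import 3 were higher and 3 lower, and of 84 tested cytosolic ribosome genes 11 were higher and 16 lower at a median of -0.01. Under nintedanib against bleomycin vehicle, none of the genes of glycolysis, fatty acid oxidation, the tricarboxylic acid cycle, electron carriers or mitochondrial regulators passed by edgeR with every library, and 1, 0, 0, 1 and 4 of them, in that order, had an unadjusted p under 0.05. Without control replicate 1, Ppara was higher at 0.54 (edgeR adjusted p = 0.0296) and Esrra lower at -0.15 among the regulators, Idh3a was higher at 0.14 in the tricarboxylic acid cycle and Acads lower at -0.17 in fatty acid oxidation. With every library 2 of 77 mitochondrial ribosome genes were lower, Uqcc3, an assembly factor of complex III, fell by 0.17 on the log2 scale, and Timm29, an import subunit, rose by 0.13.

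Markers of other cell types also differed in level between the groups. The 8 macrophage markers summed to 801 to 3636 CPM in nintedanib mice, 1170 to 4611 CPM in bleomycin vehicle mice and 246 to 348 CPM in control mice, and the 8 endothelial markers to 2291 to 3751, 1604 to 4508 and 4464 to 6033 CPM in the same 3 groups. Ciliated cell markers, 8 in number, summed to 309 to 1093, 295 to 826 and 567 to 1053 CPM. The part of macrophage and endothelial transcripts in the changes of the chain was not tested. The ciliated cell markers were the airway covariate in the fit with fat and airway covariates. They entered it together with the white adipocyte markers, so their own part was not tested apart.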

How the data were processed

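The authors deposited one matrix of raw, whole-number counts, genes by 43 libraries. The submitters' processing notes list STAR 2.7.0f, R 3.6.0 and GRCm38, with no role stated. The counting tool, strand setting and annotation release were not given in the sources used here, so a gene and an antisense partner cannot be told apart. Groups came from the treatment labels. Symbols, coordinates and exon lengths came from GENCODE M21 (GRCm38).

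Low genes were removed with filterByExpr in edgeR (count of 10, total of 15), leaving 14836. All 43 libraries entered 1 quasi-likelihood model in edgeR with TMM factors and a coefficient per group. Tests were two-sided F tests with Benjamini-Hochberg adjustment over all tested genes, and the procedure was tested on simulated data. SE is the size of the log2 change divided by the square root of F. Alternatives were other scalings, filters and tools, subsets of libraries, marker covariates and the series of the library numbers. The first digits of these numbers fall into 3 series whose meaning the labels do not give: 13, 2 and 2 nintedanib, 11, 3 and 2 bleomycin vehicle and 9, 1 and 0 control libraries. Software was edgeR 4.0.16, DESeq2 1.42.0 and limma 3.58.1 under R 4.3.3, and pandas 2.3.3 under Python 3.11.15.

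Members and lists were chosen with earlier results of these data known. Named were, per comparison and complex, the 2 largest called rises and 2 largest called falls, or the member with the smallest p, with the Sdh genes and the isoforms of complex IV; other lists give up to 2 called genes. Other members named (Ndufv1, Ndufaf3, Ndufaf4, Atp5a1, Atp5b, Atp5g3 and Atp5l) were chosen after their values were seen. Fits that left out single libraries, or control replicate 1 together with nintedanib replicate 7, kept the TMM factors of all 43 unless recomputed factors are named. Fits without the Adipoq libraries, of only the 2 groups and within the largest series computed TMM factors from their own libraries.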

Additional observations from a re-analysis of the deposited data

Results flagged for a closer look

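Among the 10 control mice, 35 values were examined (the 28 named genes and 7 sums), and in 28 of them the gap between the highest or the lowest control and its neighbour exceeded 0.466 of the group's whole range. By chance about 1 in 20 such values would be marked if each came from separate samples. The 35 values come from the same 10 libraries and the sums include the named genes, so their count cannot be set against that rate. In 27 of the 28, the value far from the others was control replicate 1, at the high end, the library with 494 CPM of Ucp1 and the highest brown and white adipocyte sums of the controls.

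The gap took 0.803 of the range for the summed CPM of all members, 0.795 for complex I, 0.892 for complex II, 0.844 for complex III, 0.761 for complex IV and 0.769 for complex V. In complex II it took 0.884 for Sdha, 0.796 for Sdhb, 0.801 for Sdhc and 0.868 for Sdhd. In complex III it took 0.823 for Uqcrfs1, 0.618 for Uqcrh and 0.733 for Uqcrq.

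In complex IV the share was 0.932 for Cox8b, 0.865 for Cox7a1, 0.808 for Cox5a and 0.788 for Cox7a2. It was 0.721 for Cox6a1, 0.687 for Cox6b1, 0.668 for Cox7b, 0.642 for Cox4i1 and 0.597 for Cox8a. In complex I it was 0.775 for Ndufb6, 0.679 for Ndufs7, 0.567 for Ndufa3 and 0.551 for Ndufa5, and in complex V it was 0.642 for Atp5f1. The exception was Ndufc2, where control replicate 5 was the lowest at 41.5 CPM, with a gap of 0.544 of the range.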

How the results depend on the processing

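Counts of called members moved most with the libraries used. Settings that leave out named libraries were chosen after seeing the data. For bleomycin vehicle minus control, leaving out each library in turn gave 22 to 42 calls, with the 42 from the fit without control replicate 1 and 22 to 27 from the other 42 fits. For nintedanib minus control it gave 17 to 36, with the 36 from that library and 17 to 21 from the others, and for nintedanib minus bleomycin vehicle 0 to 2. Without control replicate 1 and with recomputed TMM factors, the counts were 36 and 33 in the comparisons with control mice, and without control replicate 1 and nintedanib replicate 7 they were 42, 34 and 0 in the 3 comparisons, in the order bleomycin vehicle minus control, nintedanib minus control and nintedanib minus bleomycin vehicle. Leaving out the 13 libraries in which Adipoq reached 1 CPM, with 2 controls left, the counts were 13, 8 and 4 in that order, the 4 all lower. Of all tested genes, 24.8%, 22.5% and 3.83% were called in that fit, in the same order. With the cardiac covariate the counts of members were 14 and 8 in the comparisons with control mice. For nintedanib minus bleomycin vehicle, DESeq2 gave 2 and a fit of only the 2 groups gave 0. The fit with fat and airway covariates had 27 higher and 1 lower for bleomycin vehicle minus control. With the series of the library numbers as a covariate, the counts were 24, 21 and 1 in the order above, and within the largest series alone 19, 17 and 1; the other series held too few controls. Of 976 values of named genes under alternatives, 51 lost their call, 44 gained one and 1 changed direction: Cox6b2 in nintedanib minus control, at -0.046 without the Adipoq libraries. Another 56 changed sign with no call on either side. The cause was not tested. No paired analysis was made, since each library was taken as 1 mouse in 1 group and the labels name no pairs.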
